A study of Mus musculus with 4 samples.

Results

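A set of 9 liver genes was placed in the topologically associating domains (TADs) of AML12 cells, 4 of the urea cycle (Cps1, Ass1, Asl and Nags), 3 of gluconeogenesis (Pck1, G6pc and Fbp1) and 2 of amino acid breakdown (Tat and Tdo2). The 9 genes were chosen by name and make up 9 of the 21755 protein-coding genes annotated on the chromosomes of the TAD lists. The assay was in situ Hi-C, in which nuclei are cut with the enzyme MboI and DNA ends that lie close together are ligated and sequenced. AML12 is an immortalized mouse hepatocyte line, grown either on dishes (2D, 2 samples) or embedded in Matrigel (3D, 2 samples), and all cells of both cultures received 1 mM hydroxyurea, for 24 h in 2D and 36 h in 3D, to hold them at the border of G1 and S phase. The time of treatment and the culture therefore cannot be told apart. According to the study's methods, the medium in which the cells were grown before re-plating contained insulin and dexamethasone. The authors combined the replicates before TADs were called, so there was 1 list per culture, with 4467 TADs in 2D and 4355 in 3D. No spread between replicates can be given for any value and no test was made. Read numbers are not part of the lists, which leaves the depth of any single TAD unknown. Expression values were not used here, and the hepatocyte label was not checked against marker genes.

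The urea cycle turns the ammonia set free by amino acid breakdown into urea, and in mammals it runs in full mainly in the hepatocyte. Gluconeogenesis builds glucose from lactate, glycerol and the carbon skeletons of amino acids, and the liver is its main site. Both pathways are switched on in the fasting liver by glucagon and glucocorticoids, and many of their genes are used as markers of differentiated hepatocytes. TADs are stretches of chromosome whose DNA makes contact more within the stretch than across its ends, and genes of 1 TAD tend to share the same neighbourhood of regulatory elements.

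A gene was placed by the 5′ end of its gene model, called its start here. Borders lie on a grid of 40 kb, so the side of a border is not resolved for positions closer to it than that. Of the 9 genes, 7 had their start inside a TAD in 2D, where 76.7% of all protein-coding genes did, and 9 in 3D, where 83.5% of all genes did. The same 7 were inside a TAD in both lists, against 72.7% of all genes. With TADs of at least 200 kb only, 4 of the 9 genes were inside a TAD in 2D and 7 in 3D. No share of all genes is given under this rule, so these counts cannot be set against the shares above. Fbp1 and Tdo2 lay in TADs with identical ends in 2D and 3D, and Cps1 and Nags in TADs whose ends differed by 1 bin of 40 kb. Asl, Pck1 and G6pc lay in TADs with an end that differed by more than 40 kb. The starts of Ass1 and Tat were in a TAD in 3D only.

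**Figure D1:**
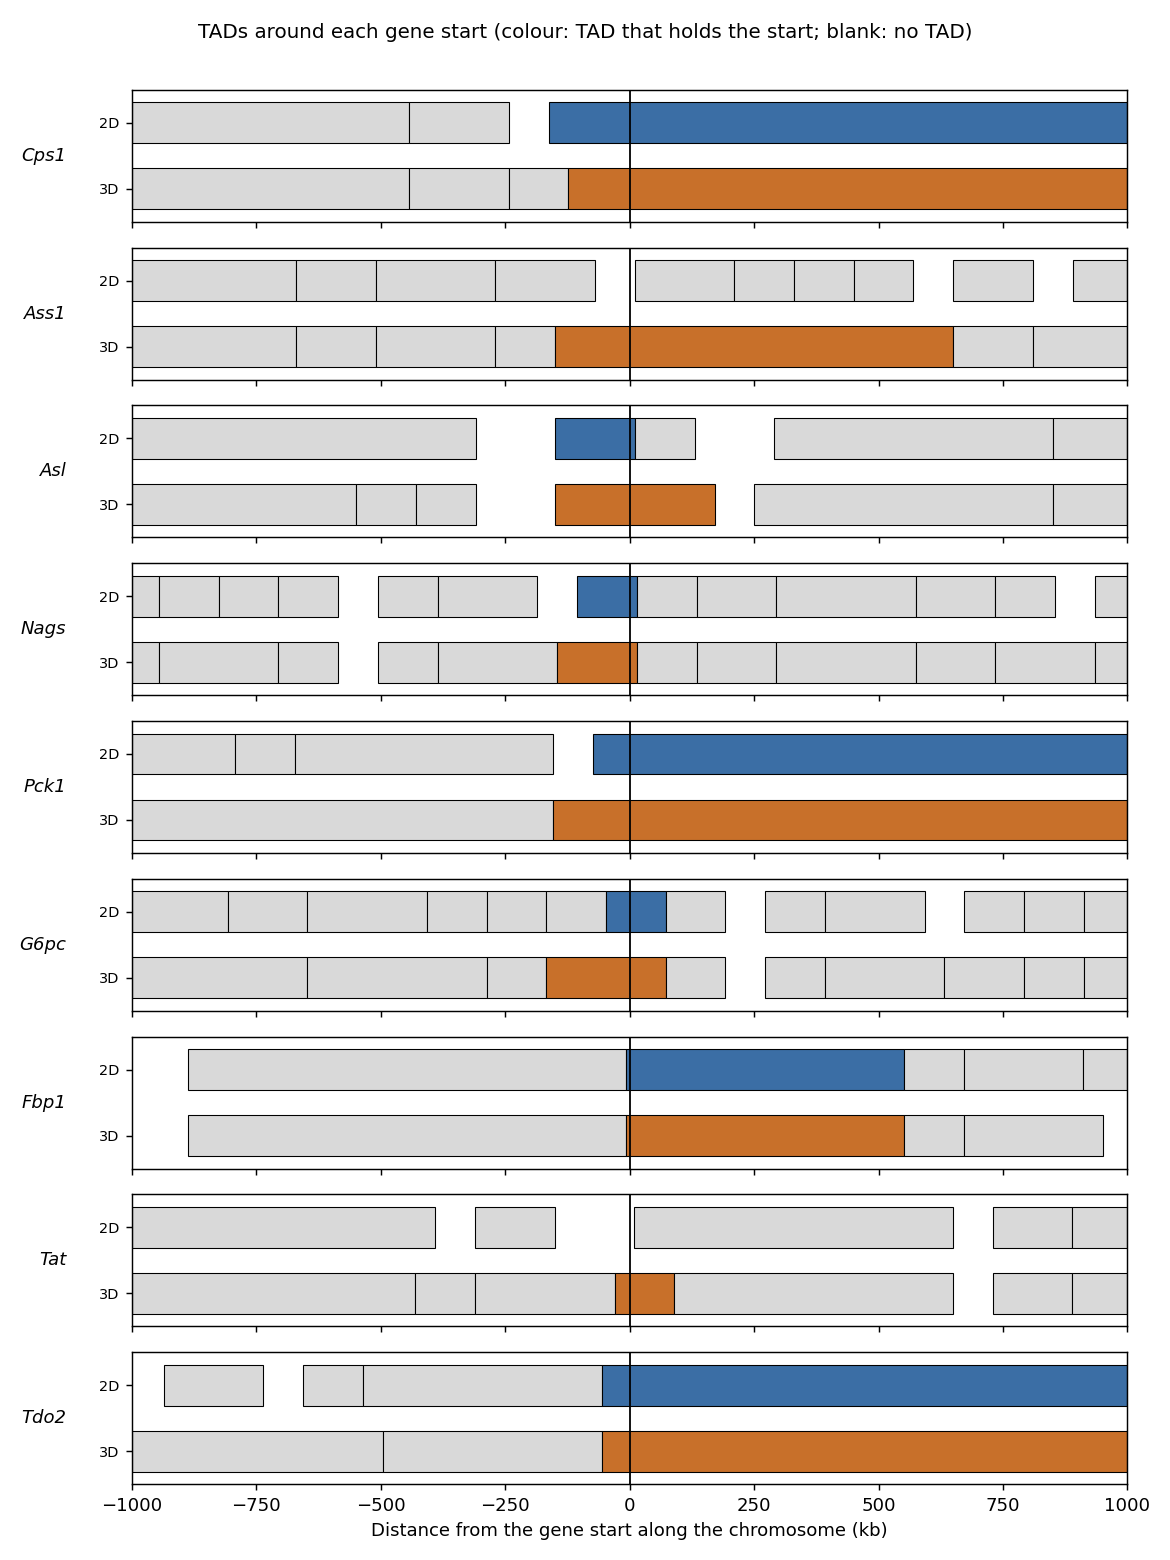
TADs of the 2D and 3D lists within 1000 kb on either side of the start of each gene, with distance along the chromosome in kb. Coloured boxes are the TADs that hold the start (blue in 2D, orange in 3D), grey boxes are other TADs, blank stretches are assigned to no TAD, and no coloured box appears for Ass1 and Tat in 2D.

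Counted over the 9 genes, 4 were in a TAD shared between 2D and 3D, which means that both ends were within 40 kb of each other, and 49.7% of all genes were in such a TAD. Identical ends were found for 2 genes, against 35.1% of all genes. A TAD in 3D only was found for 2 of the 9 genes and for 10.8% of all genes. None of the 9 genes had a TAD in 2D only, as 3.95% of all genes did. With 9 genes, 1 gene is worth 11.1% of the list, and no count is read as a departure from the background.

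Cps1 encodes carbamoyl phosphate synthetase, the mitochondrial enzyme that takes up ammonia in the first step of the urea cycle. The gene covers chr1:67123026-67231259 on the plus strand (mm10). Its start lay in a TAD of 2280 kb in 2D (chr1:66960001-69240000) and of 2240 kb in 3D (chr1:67000001-69240000). These were the largest TADs among the 9 genes in each list. The upper end was at the same position, while the lower end was 40 kb closer to the gene in 3D, and the start was 163 kb from the nearest border in 2D, against 123 kb in 3D. In 3D a TAD of 120 kb took up this 40 kb together with the 80 kb below, which were assigned to no TAD in 2D. Only 2 other protein-coding genes started in the TAD, the same in both lists. They were Lancl1, at -84.2 kb from the start of Cps1 along the chromosome, and Erbb4, a receptor tyrosine kinase of the EGF receptor family, at 1985 kb.

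Ass1 encodes argininosuccinate synthetase, which joins citrulline and aspartate. It covers chr2:31470207-31520672 on the plus strand, and its TAD in 3D held more whole TADs of the 2D list than that of any other of the 9 genes. In 2D the start was in an unassigned stretch of 80 kb (chr2:31400001-31480000) with no other gene start, 9.79 kb from the border at its upper end. By its position on the 40 kb grid, this border fell inside the gene body, with 9.79 kb below it and 40.7 kb inside the next TAD. In 3D the start and the whole gene were inside a TAD of 800 kb (chr2:31320001-32120000), 150.2 kb from its nearest border. This TAD contained 4 whole TADs of the 2D list, of 200, 120, 120 and 120 kb, and overlapped 5. It held 11 other gene starts, which were Fubp3, Prdm12, Exosc2, Abl1, Qrfp, Fibcd1, Lamc3, Aif1l, Nup214, Fam78a and Plpp7. Within 1 Mb on either side of the start there were 10 TADs in 2D and 7 in 3D.

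Asl encodes argininosuccinate lyase, which splits argininosuccinate into arginine and fumarate. It covers chr5:130011258-130029247 on the minus strand. The TAD of its start measured 160 kb in 2D (chr5:129880001-130040000) and 320 kb in 3D (chr5:129880001-130200000). The lower end was the same and the upper end lay 160 kb farther out in 3D, past the 120 kb TAD that followed in 2D. The start was 10.8 kb from a border in 2D and 149.2 kb from one in 3D. The TAD held 7 other genes in 2D, namely Chchd2, Zbed5, Phkg1, Nupr1l, Vkorc1l1, Gusb and Crcp, and Tpst1, Kctd7 and Rabgef1 joined them in 3D. Crcp starts on the opposite strand 43 bp from the start of Asl, so the pair shared a TAD in each list.

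Nags encodes N-acetylglutamate synthase, whose product is the obligatory activator of the Cps1 enzyme. It covers chr11:102145513-102149477 on the plus strand. Its TAD measured 120 kb in 2D (chr11:102040001-102160000) and 160 kb in 3D (chr11:102000001-102160000), and the nearest border was the shared upper end, 14.5 kb from the start in both. The other genes were Cd300lg, Mpp2, Tmem101 and the hormone genes Ppy and Pyy in both lists, and Mpp3 in 3D alone. G6pc3, the broadly expressed relative of G6pc, starts 44.1 kb from Nags, but 1 border lay between the 2 starts in each list. A chromosome with many short TADs surrounded Nags, with 13 TADs within 1 Mb in 2D and 12 in 3D.

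Pck1 encodes the cytosolic phosphoenolpyruvate carboxykinase, the classic rate-controlling enzyme of gluconeogenesis. It covers chr2:173153048-173159273 on the plus strand. Its TAD measured 1880 kb in 2D (chr2:173080001-174960000) and 1960 kb in 3D (chr2:173000001-174960000). The upper end was identical, and the lower end, which is the nearest border, was 73.0 kb from the start in 2D and 153.0 kb in 3D. The TAD held 19 other genes in 2D and 21 in 3D. Rae1 and Rbm38 were the additions, and the nearest genes on each side were Ctcfl, at -33.5 kb, and Zbp1, at 65.9 kb. The imprinted gene Gnas, named here after its position was seen, started 1131 kb above Pck1 in the same TAD of each list.

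G6pc encodes the catalytic subunit of glucose-6-phosphatase, which releases free glucose in the last step of gluconeogenesis. It covers chr11:101367561-101377903 on the plus strand. Its TAD measured 120 kb in 2D (chr11:101320001-101440000), the smallest size in either list, and 240 kb in 3D (chr11:101200001-101440000). The lower end lay 120 kb farther out in 3D, at the lower end of the TAD that preceded it in 2D, so that the 3D TAD covered the same bases as 2 adjacent 2D TADs. The nearest border in 2D was the lower end, 47.6 kb from the start, and in 3D it was the upper end at 72.4 kb. The neighbours Aoc2, Aoc3, Aarsd1, Gm27029, Rundc1 and Ptges3l were present in both, while Ezh1, Ramp2, Vps25, Wnk4, Cntd1, Coa3, Becn1 and Psme3 were added in 3D. The share of neighbours present in both lists, out of those in either, was 42.9%, the lowest of the 7 genes that had a TAD in both.

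Fbp1 encodes the liver fructose-1,6-bisphosphatase. It covers chr13:62864753-62888282 on the minus strand. The TAD of its start was chr13:62880001-63440000 in both lists, 560 kb long, with 1 other gene, 2010111I01Rik. The start was 8.28 kb from the lower border in both, the shortest distance among the 9 genes. The body of Fbp1 crossed that border in each list, with 8.28 kb in the TAD of the start and 15.2 kb, the 3′ part of the gene, in the TAD below. That TAD, chr13:62000001-62880000, was also identical in both lists, 880 kb long, and held the start of the muscle gene Fbp2, 29.9 kb from the start of Fbp1. By these positions the paralogs had their starts on opposite sides of 1 border in 2D and 3D alike, although both starts lay within 1 bin of 40 kb from it.

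Tat encodes tyrosine aminotransferase, the first enzyme of tyrosine breakdown and a long-used readout of glucocorticoid action in hepatocytes. It covers chr8:109990437-109999803 on the plus strand. In 2D its start lay in an unassigned stretch of 160 kb (chr8:109840001-110000000) with Phlpp2 and Marveld3, 9.56 kb from the border. The gene ended 0.20 kb short of that border, so by these positions the whole body lay outside the 640 kb TAD that began there. That gap is far below the grid of 40 kb, so the side of the border is not resolved. In 3D the start and end were inside a TAD of 120 kb (chr8:109960001-110080000) with Marveld3, Chst4 and Zfp612, and the distance to the nearest border was 30.4 kb.

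Tdo2 encodes tryptophan 2,3-dioxygenase, which opens the indole ring of tryptophan in the liver. It covers chr3:81957090-81976202 on the minus strand. The TAD was chr3:81920001-83800000 in both lists, 1880 kb long, and the start was 56.2 kb from the same lower border. All 14 other genes were the same. Asic5 started at 6.09 kb and Ctso at -43.6 kb from the start of Tdo2. The 3 fibrinogen genes, Fgg, Fga and Fgb, which encode a major secreted product of hepatocytes, started 1032, 1050 and 1074 kb above Tdo2 in the same TAD. They were named after their positions were seen.

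**Figure D2:**
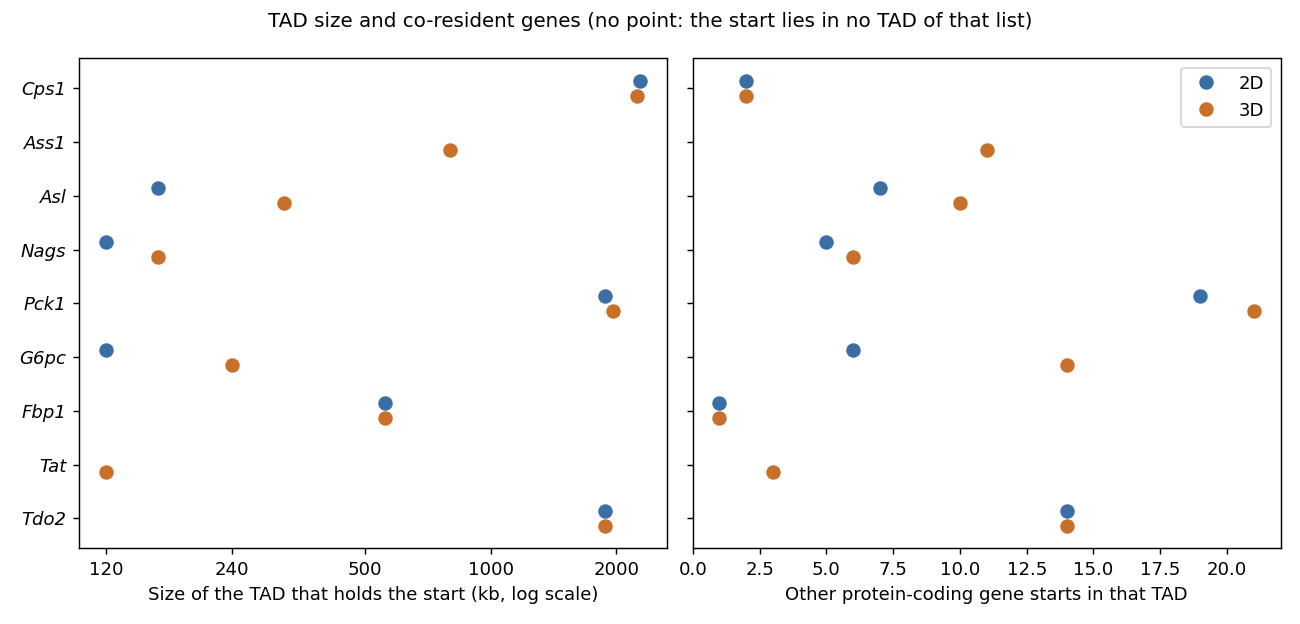
Size of the TAD that holds each start in kb (left, log axis) and number of other protein-coding gene starts in it (right), in 2D (blue) and 3D (orange). Sizes run from 120 to 2280 kb, and the 2 values coincide for Fbp1 and Tdo2, while Ass1 and Tat have a 3D value only.

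The 9 genes fell into small, intermediate and large TADs. The TAD size of the 7 placed genes in 2D was 120 kb at the lowest, 560 kb at the median and 2280 kb at the highest, and that of the 9 in 3D was 120, 560 and 2240 kb. The median in 2D rested on few genes and became 1220 kb without Nags or without G6pc and 360 kb without Pck1. The median over all genes inside a TAD was 320 kb in each list. Of the 7 genes with a TAD in both, 4 had a larger one in 3D (Asl, Nags, Pck1 and G6pc), 1 a smaller one (Cps1) and 2 the same. Among all genes with a TAD in both lists, 30.8% had a larger and 49.3% an equally large TAD in 3D. The median number of other genes was 6 in 2D and 10 in 3D for the members, and 4 and 5 for all genes. With all annotated genes counted in place of protein-coding ones, the medians of the members were 18 and 19. More neighbours in 3D were found for 4 of the 7 genes and fewer for none. Among all genes with a TAD in both lists, the shares were 25.5% and 14.4%. The median share of neighbours kept was 90.5% over the 7 genes with a TAD in both lists, with a range from 42.9% to 100%. No such share is given for all genes.

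**Figure D3:**
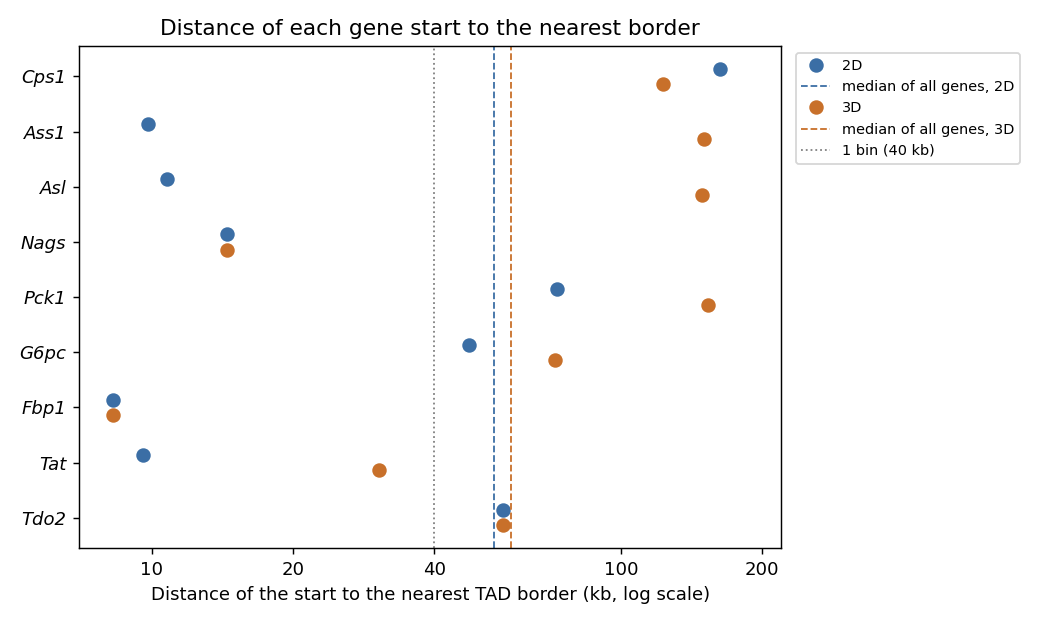
Distance from each gene start to the nearest TAD border in kb (log axis), in 2D (blue) and 3D (orange). Dashed lines mark the medians of all genes, at 53.6 kb for 2D and at 58.3 kb for 3D. The dotted line marks 1 bin of 40 kb. Ass1 and Asl lie left of the dotted line in 2D and right of it in 3D.

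The distances to the nearest border ran from 8.28 kb (Fbp1) to 163 kb (Cps1) in 2D, with a median of 14.5 kb, and from 8.28 kb (Fbp1) to 153.0 kb (Pck1) in 3D, with a median of 72.4 kb. The median in 2D became 31.0 kb without Ass1, 29.2 kb without Nags and 37.1 kb from the 3′ end of the gene. It became 56.2 kb with borders restricted to the points at which 2 TADs meet, and 73.0 kb when TADs under 200 kb were dropped. The median in 3D became 123 kb without these small TADs. Within 40 kb of a border were 5 starts in 2D (Ass1, Asl, Nags, Fbp1 and Tat), against 41.1% of all genes, and 3 in 3D (Nags, Fbp1 and Tat), against 38.7%. The 3 genes of 3D were among the 5 of 2D. Under that restriction to meeting points, the count was 3 in each list, with no share of all genes to set beside it. The start was farther from a border in 3D for 5 genes (Ass1, Asl, Pck1, G6pc and Tat), nearer for Cps1 and at the same distance for 3 (Nags, Fbp1 and Tdo2), and the corresponding shares of all genes were 20.2%, 17.1% and 62.7%. The nearest borders of the 2 lists were within 40 kb of each other for 5 genes, against 78.1% of all genes. The exceptions were Ass1 and Asl, with 160 kb between the nearest borders, G6pc with 120 kb and Pck1 with 80 kb. That count of 5 became 3 with borders only where 2 TADs meet, and 3 with the same position required. No share of all genes is given under either rule. A border inside the gene body was found for Ass1 and Fbp1 in 2D, against 14.9% of all genes, and for Fbp1 alone in 3D, against 13.8%.

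By role, 2 of the 4 urea cycle genes (Cps1 and Nags), 1 of the 3 gluconeogenic genes (Fbp1) and 1 of the 2 genes of amino acid breakdown (Tdo2) had a shared TAD, against the 49.7% of all genes given before. No TAD of either list held the starts of 2 members. Nags and G6pc, on the same chromosome, started 778 kb apart, with 6 borders between them in 2D and 5 in 3D. Ass1 and Pck1 also share a chromosome, with 330 borders between them in 2D and 304 in 3D.

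The 40 kb bins that hold the starts differed in base composition. The G and C content was lowest for Cps1 (38.2%) and Tdo2 (38.8%), which also had the fewest MboI sites, 75 and 70, and lay in TADs of 1880 kb or more. Pck1, whose TAD measured 1880 kb in 2D, had 122 sites. The content was highest for Ass1 (52.5%), whose bin had 86 sites. The medians of the 9 genes were 45.7% G and C and 102 sites, against 44.5% and 99 for all genes. Whether the number of cutting sites bears on the placement of Cps1, Tdo2 or Ass1 was not tested.

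The sequence at borders was read for the core of the CTCF motif, because CTCF is the protein that holds loop ends at many TAD borders. Both strands were searched in windows of 80 kb centred on each border, with the core motif known by the name of that factor. A match was found in 52.9% of the 2D and 52.9% of the 3D border windows and in 29.1% of windows at all 64105 grid positions. Of the borders nearest to the 9 genes, 5 in 2D and 6 in 3D had a match, with 12 and 10 matches in all. The windows of Cps1, Nags and Tdo2 had none in either list. G6pc had none in 2D and 1 in 3D, and Asl had 4 in 2D and 1 in 3D.

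The matches are shown for Ass1, Asl and Pck1, whose nearest border was at another position in each list, for G6pc, with a match in 3D alone, for Fbp1, with the same border in both, and for Tat. They were taken from GRCm38.p6, the genome that mm10 names, and written 5′ to 3′ on the strand of the match, with the core in capitals. The first 2 belong to the Ass1 border in 2D (chr2:31483107-31483138, plus strand) and in 3D (chr2:31295159-31295190, minus strand).
Ass1 border in 2D: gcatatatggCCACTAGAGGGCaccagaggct
Ass1 border in 3D: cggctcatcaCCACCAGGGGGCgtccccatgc
The 2D match was 3.12 kb above the border and inside the body of Ass1. The Asl border had 4 matches in 2D, at chr5:130007529-130007560, chr5:130009559-130009590 and chr5:130023841-130023872 on the plus strand and at chr5:130066453-130066484 on the minus strand. In 3D it had 1, at chr5:129877161-129877192 on the minus strand.
Asl border in 2D, lowest: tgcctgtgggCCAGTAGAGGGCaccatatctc
Asl border in 2D, lower middle: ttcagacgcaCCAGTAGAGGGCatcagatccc
Asl border in 2D, upper middle: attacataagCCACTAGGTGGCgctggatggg
Asl border in 2D, highest: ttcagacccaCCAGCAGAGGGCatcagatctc
Asl border in 3D: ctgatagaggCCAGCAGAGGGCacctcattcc
The upper middle match in 2D lay inside the body of Asl. The border labelled 3D was also the lower end of the 2D TAD, where it was not the nearest one. The next 4 belong to Pck1, at chr2:173051187-173051218 and chr2:173089648-173089679 in 2D and at chr2:172996423-172996454 and chr2:173038546-173038577 in 3D, all on the minus strand.
Pck1 border in 2D, lower: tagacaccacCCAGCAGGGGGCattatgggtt
Pck1 border in 2D, upper: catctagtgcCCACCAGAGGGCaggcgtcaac
Pck1 border in 3D, lower: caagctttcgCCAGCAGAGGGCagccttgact
Pck1 border in 3D, upper: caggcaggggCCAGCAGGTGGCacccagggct
All 4 lay below the start of Pck1 and were oriented alike. The border labelled 3D was a border of the 2D list too, as the upper end of the TAD before that of Pck1. The match at the upper border of the G6pc TAD in 3D was at chr11:101419877-101419908 on the minus strand. That border was also the upper end of the 2D TAD, where it was not the nearest one.
G6pc border in 3D: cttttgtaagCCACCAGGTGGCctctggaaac
The Fbp1 border window held 3 matches on the minus strand, at chr13:62856354-62856385, chr13:62864582-62864613 and chr13:62905391-62905422.
Fbp1 border, lowest: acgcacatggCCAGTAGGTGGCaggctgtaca
Fbp1 border, middle: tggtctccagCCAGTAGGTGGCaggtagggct
Fbp1 border, highest: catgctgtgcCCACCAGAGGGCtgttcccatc
The lowest and the middle one lay on the side of Fbp2 and the highest on the far side of the Fbp1 start. The Tat matches were at chr8:110003138-110003169 (minus strand) for 2D only, at chr8:109947532-109947563 (plus strand) for 3D only, and at chr8:109968962-109968993 (plus strand) in the windows of both lists.
Tat border in 2D: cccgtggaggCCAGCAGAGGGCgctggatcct
Tat border in 3D: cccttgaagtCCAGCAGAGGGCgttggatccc
Tat border, both: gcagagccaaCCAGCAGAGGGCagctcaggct
A match is a run of letters and not a measured CTCF site, and binding of CTCF was not analysed here.

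Promoters were taken from RefSeq (GRCm38.p6, 250 bases before to 50 after the start) for Fbp1, the gene nearest to a border, and Pck1, the farthest from one in 3D. Of the 9 genes, 7 matched this table. MboI sites, the points at which Hi-C can record a contact, are in capitals. The windows are chr13:62888233-62888532 on the minus strand for Fbp1 and chr2:173152823-173153122 on the plus strand for Pck1.
Fbp1 promoter: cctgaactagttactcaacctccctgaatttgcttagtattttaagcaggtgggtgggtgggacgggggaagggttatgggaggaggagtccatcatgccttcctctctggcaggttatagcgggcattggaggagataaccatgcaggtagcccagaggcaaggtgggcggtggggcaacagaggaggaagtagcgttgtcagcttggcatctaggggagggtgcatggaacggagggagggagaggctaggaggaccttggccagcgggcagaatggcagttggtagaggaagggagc
Pck1 promoter: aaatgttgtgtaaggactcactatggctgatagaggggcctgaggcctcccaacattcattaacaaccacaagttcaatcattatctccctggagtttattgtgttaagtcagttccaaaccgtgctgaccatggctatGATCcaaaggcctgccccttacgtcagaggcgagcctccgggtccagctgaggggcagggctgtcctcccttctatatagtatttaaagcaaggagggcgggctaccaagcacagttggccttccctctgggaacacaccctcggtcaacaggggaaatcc
The Fbp1 window had no MboI site (the letters GATC, the same on both strands) and the Pck1 window had 1. Such a site was found in 48.0% of the 32851 promoters of the table.

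Another 57 genes of the same pathways were placed in the same way, 8 of the urea cycle and nitrogen handling, 22 of gluconeogenesis and its regulators, and 27 of amino acid breakdown. Of the 57, 42 were inside a TAD in 2D (73.7%, against 76.7% of all genes) and 52 in 3D (91.2%, against 83.5%). A shared TAD was found for 27 (47.4%, against 49.7%) and an identical one for 14 (24.6%, against 35.1%). With TADs of at least 200 kb only, 16 were in a shared TAD, and no share of all genes is given under this rule. Shared TADs were found for 3 of 8 genes of the urea cycle list, 9 of 22 of the gluconeogenesis list and 15 of 27 of the amino acid list. None of the 57 shared a TAD with any of the 9 genes. As for the 9 genes, none had a TAD in 2D only, against 3.95% of all genes. A TAD in 3D only was found for 10 (17.5%, against 10.8% of all genes), which were Slc25a15 (the mitochondrial ornithine carrier), Glud1, Slc37a4 (the glucose-6-phosphate transporter that serves G6pc), Tpi1, Ldha, Creb1, Gstz1, Hal, Prodh2 and Gpt. The 5 in no TAD of either list were Oat, Pck2, Got2, Sds and Sdsl, and 12.6% of all genes were placed in this way.

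**Figure D4:**
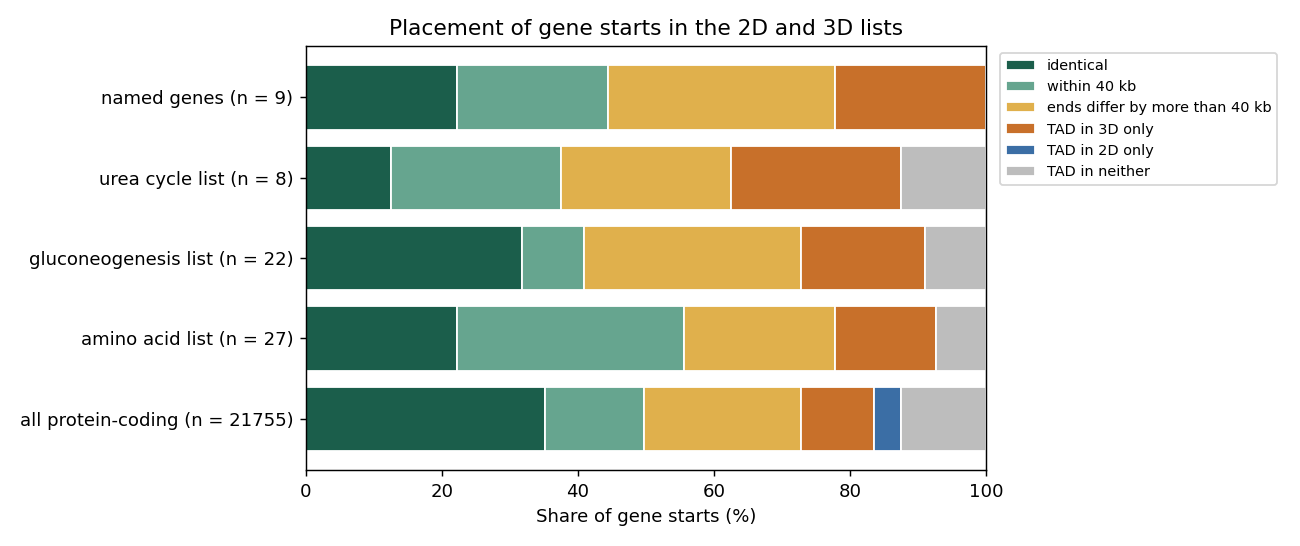
Share of gene starts in percent (bars of 100%) by placement in the 2D and 3D lists, for the 9 named genes, the 3 pathway lists (8, 22 and 27 genes) and all 21755 protein-coding genes. The colours stand for identical TADs, ends within 40 kb, ends that differ by more, a TAD in 3D only, a TAD in 2D only and a TAD in neither, and the share with a TAD in 2D only is drawn for all genes alone.

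The starts of the pathway lists nearest to a 2D border were those of Slc25a15 (1.40 kb), Cbs (2.76 kb) and Eno1 (3.28 kb). The farthest were those of Kmo (1099.6 kb), of Ppargc1a, the coactivator that turns on Pck1 and G6pc in fasting (1072 kb), and of Slc25a13 (617 kb). Within 40 kb of a border were 34 of the 57 in 2D (59.6%, against 41.1% of all genes) and 25 in 3D (43.9%, against 38.7%). The largest differences in TAD size went both ways. The TAD of Ppargc1a was 2680 kb long in 2D but 1720 kb in 3D. That of Mdh1, the cytosolic malate dehydrogenase, measured 1120 and 720 kb. The TAD of Pcx, the pyruvate carboxylase that starts gluconeogenesis, was larger in 3D, with 200 kb in 2D against 560 kb.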

How the data were processed

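TAD positions of AML12 cells were analysed from 1 list per culture. The values deposited are TAD start and end positions in base pairs of mm10. As described in the study's methods, the authors mapped reads with Bowtie2 (version 2.2.9), combined the 2 replicates of each culture, binned contacts at 40 kb, applied ICE correction, brought both cultures to equal depth and called TADs with Armatus at a gamma of 0.8. Pooling removes the spread between replicates, and the grid limits every border to 40 kb. All positions were on this grid and the smallest TAD measured 120 kb.

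Gene starts, names and types came from GENCODE M21, base composition and motifs from GRCm38.p6. A border is each distinct TAD start or end (6056 in 2D, 5563 in 3D). Placement, distances, neighbours and overlaps were computed in Python 3.11.15 with numpy 2.4.6 and pandas 2.3.3, and were tested on simulated data (3000 placements), where 5 of 5 measures gave the known answers. Positions are printed from 1. The sequences are described without tests.

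The 9 genes, the pathway lists and the rules were chosen with earlier results of these data known. Named were the 9 genes; all neighbours where a TAD held at most 10, otherwise the nearest on each side and those of 1 list only; and pathway genes that shared a TAD with a member, lay outside TADs in either list, were the 3 nearest to or farthest from a 2D border, or were the 3 with the largest size difference. A gene of the chosen set and 2 genes of the pathway lists are not reported here and are left out of their counts. Cps1 and Asl were the genes without an entry in the promoter table. Alternatives were another position for each gene, other borders, other distances, larger TADs, other gene sets and leaving out 1 gene of each pair on the same chromosome.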

Additional observations from a re-analysis of the deposited data

How the results depend on the processing

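Over 13 alternatives, 124 values were recomputed. Of these, 113 stayed within 1.5 times the reported count or within the order-statistic interval of the reported median, and 11 did not. The limits are so wide that leaving out 1 gene could hardly move a value past them, and none moved. The 113 is therefore not a measure of stability. With TADs of at least 200 kb only, 4 members were inside a TAD in 2D, 3 were within 40 kb of a border in 2D, and 16 pathway genes were in a shared TAD. With borders only where 2 TADs meet, 3 members were within 40 kb of a border in 2D, and 3 had the same nearest border in both lists. With the same position required in place of 40 kb, 2 members and 14 pathway genes were in a shared TAD, and 3 members had the same nearest border. With 80 kb in place of 40 kb, 8 members were near a border in 2D and 5 in 3D. No share of all genes is given under any of these alternatives, so the counts cannot be set against the background. With all annotated genes counted, the median number of neighbours in 3D was 19. The order-statistic intervals are wide (9.56 to 73.0 kb for the distance in 2D, 120 to 2280 kb for the TAD size in 2D). They treat the genes as draws from a larger set, although the genes were chosen by name. They hold no spread between replicates and served only as limits here. Unlike that median of 19, the medians that follow moved by more than 1.5 times but stayed inside their intervals or, for 73.0 kb, at the limit. The median distance in 2D, 14.5 kb, became 31.0 kb without Ass1, 29.2 kb without Nags, 37.1 kb from the 3′ end of the gene, 56.2 kb with borders only where 2 TADs meet and 73.0 kb with TADs of at least 200 kb, and that in 3D, 72.4 kb, became 123 kb with such TADs. The median TAD size in 2D, 560 kb, became 1220 kb without Nags or without G6pc, 360 kb without Pck1 and 1880 kb with TADs of at least 200 kb. The median number of neighbours in 2D was 18 with all annotated genes. The changes under other rules follow from the rules themselves, which drop or add TADs, borders, distance or genes, or place a gene by another position.

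No paired analysis was possible because each list came from both replicates of a culture combined. Omitting a replicate could not be done either. The grid of 40 kb and the small number of genes limit every count, and the number of reads behind a single TAD is unknown.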
